A study of Mus musculus with 6 samples.

Results

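The 8 genes of Schwann cells and their myelin described here are Sox10, Cdh19, Mbp, Pmp22, Prx, Mal, Cnp and Kcna1. They were chosen by symbol, as myelin proteins and genes of the Schwann lineage, and all 8 were found among the 17030 genes of the deposited table. RNA was sequenced from the mononuclear cell fraction of muscle in 6 male C57BL/B6 mice. In 3 mice, called Pax7-CreERT here (Pax7 Cre ErT x IKKbfl/fl), a tamoxifen-dependent Cre recombinase was placed under Pax7, the transcription factor of muscle satellite cells. The controls, 3 mice labelled IKKbfl/fl, carried no Cre. All 6 mice had floxed alleles of IKKb, the kinase of canonical NF-kB signalling encoded by Ikbkb, all bore a Lewis lung carcinoma (LLC) tumour, used as a model of cancer wasting, and all were given tamoxifen from day 10 to day 14 after tumour cell injection. Pax7 drives the Cre in satellite cells, and Schwann cells are not a labelled target of the deletion. A group with Cre and unfloxed IKKb is not among the samples, so the enzyme itself and the loss of IKKb cannot be told apart.

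Schwann cells are the glia of peripheral nerves. The myelinating ones wrap an axon and compact their membrane into myelin, with PMP22 among its membrane proteins and MBP holding the cytoplasmic faces together. The transcription factor SOX10 maintains the lineage and, together with EGR2, switches on the myelin genes, while neuregulin from the axon acts through the receptors ERBB2 and ERBB3. In muscle these cells follow the motor and sensory axons to their endings, and when muscle is dissociated they enter the suspension of mononuclear cells as a small fraction.

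The values were in CPM, a gene's share of the table's reads scaled to 1000000, so a value is a level relative to all other RNA of the mixed cells. In such a mixture fewer cells of a type and less RNA per cell cannot be told apart. The libraries held an estimated 4902000 to 13322000 reads in Pax7-CreERT mice and 4044000 to 7422000 in controls. The scarcest member value, Cdh19 in control replicate 3, rested on about 56 reads, a counting SD of 13.4%, and the most abundant, Mbp in Pax7-CreERT replicate 2, on about 5928 reads, a counting SD of 1.30%. Control replicate 3 stood apart from the other libraries. It lay at 51.6 on the first principal component, against -17.0 to 0.20 for the other 5, and haemoglobin genes took 12.6% of its CPM, against 1.84% to 4.83% in the others. Of all 14763 genes tested, 39.8% had their lowest value in that library. Ikbkb measured 51.4, 48.4 and 52.7 CPM in Pax7-CreERT replicates 1, 2 and 3, against 51.3, 57.4 and 48.8 CPM in the controls, so the groups overlapped. These whole-gene values hold no separate count of the floxed exons and come from all cells of the suspension, so they do not check the deletion.

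The Schwann label rests on the choice of symbols, and markers of these cells were present in the suspension. Sox10, Cdh19 and Mbp are members themselves, so only S100b and Erbb3 are markers from outside the 8. Their detection does not show which cells the RNA of the members came from. All 5 of Sox10, Cdh19, Mbp, S100b and Erbb3 were detected in every library, with Mbp the most abundant at 300.0 to 445.0 CPM. The lowest single value was 13.8 CPM, for Cdh19 in control replicate 3, though Cdh19 reached 34.6 CPM in another library. Over the 6 libraries Sox10 had the lowest mean, 21.0 CPM, then S100b at 21.5, Erbb3 at 23.1 and Cdh19 at 27.1 CPM. Some marker genes of other muscle cells had far higher CPM, with the endothelial gene Pecam1 at 1943 to 2645 CPM and the pericyte gene Rgs5 at 5338 to 8759 CPM. The satellite cell gene Pax7, by contrast, averaged 16.5 CPM over the 6 libraries. The CPM of single genes therefore does not rank the cell types by number. Pmp22, Prx, Mal and Cnp are also transcribed by cells outside nerve, so their levels in a mixture need not come from Schwann cells alone.

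The upstream sequences of Cnp and Prx are shown because these are the members in which letters read by the lineage's transcription factors were found. RefSeq (GRCm38.p6) gave upstream sequence for 4 of the members, Cnp, Prx, Mal and Pmp22, with 7 start sites in all. The 250 bases before each start were searched on both strands for ACAAAG and ACAATG, the core bound by SOX proteins, and for GCGTGGG, the core bound by EGR proteins; these motifs do not overlap in the sequences shown. Capitals mark the matches.
Cnp (chr11:100574689-100574938, plus strand): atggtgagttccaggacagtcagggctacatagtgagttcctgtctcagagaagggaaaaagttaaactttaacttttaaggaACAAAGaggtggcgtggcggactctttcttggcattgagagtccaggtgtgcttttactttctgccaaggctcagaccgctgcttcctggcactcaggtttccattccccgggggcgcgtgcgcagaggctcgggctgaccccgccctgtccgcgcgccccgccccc
Prx (chr7:27499074-27499323, plus strand): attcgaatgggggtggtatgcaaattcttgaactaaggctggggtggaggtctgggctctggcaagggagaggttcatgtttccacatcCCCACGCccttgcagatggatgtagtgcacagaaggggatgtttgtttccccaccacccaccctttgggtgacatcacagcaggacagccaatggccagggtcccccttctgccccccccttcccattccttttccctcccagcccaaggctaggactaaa
The SOX letters of Cnp begin 167 bases before the start, and the EGR letters of Prx, read on the minus strand, begin 161 bases before it. A SOX core was present in 25.2% of 32851 mouse promoter windows of this length and the EGR core in 4.30%. The windows of Mal and of the 4 Pmp22 starts held neither, which says only that these letters are not in these windows. Matches of this kind are a description of sequence and not of binding.

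Levels can be compared between genes only per length. Divided by the length of the merged exons of each gene in GENCODE M21, Pmp22 had the highest level, at 108.7 ± 17.6 CPM per kilobase in Pax7-CreERT mice and 97.3 ± 15.6 in controls (SD, n = 3 each). Its lowest library, at 79.2 CPM per kilobase, lay above the highest of any other member, 54.8 for Mbp. Mbp, Mal, Prx, Kcna1 and Cnp formed a middle group whose libraries overlapped, between 20.8 and 54.8 CPM per kilobase, and the order within it cannot be read beyond the spread. The lineage genes were lowest and overlapped each other, with Sox10 at 8.38 ± 1.43 against 6.72 ± 0.837 CPM per kilobase and Cdh19 at 7.64 ± 0.654 against 6.23 ± 2.66. Merged exons of Mbp include those of its longer non-myelin transcripts, which lowers its per-length level.

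**Figure D1:**
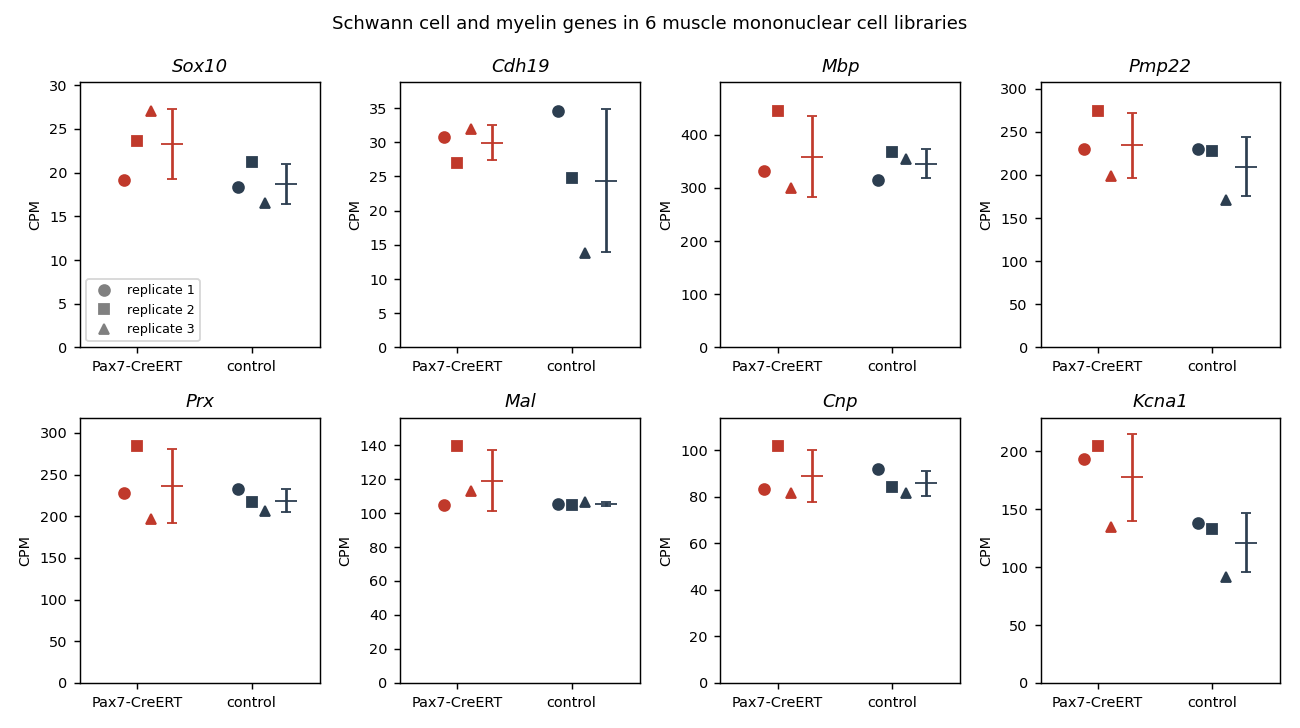
CPM of each of the 8 genes in the 3 Pax7-CreERT (red) and 3 control (dark) libraries, with symbols for the replicates and, beside each group, its mean with the SD as an error bar; the axes start at 0. The groups overlap in all 8 panels, and control replicate 3 is lowest for Cdh19 (13.8 CPM) and Kcna1 (91.8 CPM).

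No member differed between the genotypes past the test. The comparison was between tumour-bearing floxed mice with and without the Cre. It covered the RNA of the mononuclear cells, here for the genes of nerve-associated glia. All 8 members had higher means on the log2 scale in Pax7-CreERT mice. Their median log2 fold change was 0.16, beside a median of 0.09 over all 14763 genes tested, of which 68.0% were above 0. Tested with limma on log2(CPM + 1) and adjusted over all genes, 0 of the 8 passed at an adjusted p under 0.05, beside 0.00677% of all genes (1 gene). At an unadjusted p under 0.05 there was 1 member, Kcna1, higher in Pax7-CreERT mice, beside 5.52% of all genes in either direction and 4.58% that were higher. The groups overlapped in all 8 members, whereas they did not overlap in 11.0% of all genes. With TMM factors, which rescale the libraries for composition, the median over all genes was -0.0015 and that of the members 0.065, with 5 of 8 above 0.

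The lineage genes came first among the members by role. Sox10 (chromosome 15, 79154913 to 79164490, mm10), the transcription factor of the lineage, measured 19.1, 23.7 and 27.1 CPM in Pax7-CreERT replicates 1, 2 and 3, against 18.4, 21.2 and 16.5 CPM in control replicates 1, 2 and 3. Pax7-CreERT replicates 2 and 3 lay above every control, and replicate 1 lay among them. It averaged 23.3 ± 3.98 and 18.7 ± 2.33 CPM (SD, n = 3 each). This gave a log2 fold change of 0.30 (SE 0.18, limma adjusted p = 0.896). The 95% interval of the difference ran from -6.68% to 61.6%, so neither equal levels nor a rise of that size lies outside it.

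Cdh19 (chromosome 1, 110888326 to 110977593) encodes a cadherin of Schwann cell precursors and mature Schwann cells. It measured 30.7, 27.0 and 32.0 CPM in Pax7-CreERT replicates 1, 2 and 3, against 34.6, 24.8 and 13.8 CPM in the controls. The Pax7-CreERT values lay close together, and the controls spread on either side of them, with replicate 1 the highest of all 6 libraries and replicate 3 the lowest. The log2 fold change was 0.37 (SE 0.27, limma adjusted p = 0.899), and without control replicate 3 it was 0.02.

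The genes of compact myelin differed little. Mbp (chromosome 18, 82475123 to 82585637), the protein that zips the cytoplasmic faces of the myelin membrane, measured 331.8, 445.0 and 300.0 CPM in Pax7-CreERT replicates 1, 2 and 3, against 314.4, 367.1 and 354.0 CPM in the controls. The highest and the lowest library were both of the Pax7-CreERT group. It averaged 358.9 ± 76.2 and 345.2 ± 27.4 CPM (SD, n = 3 each), a log2 fold change of 0.04 (SE 0.17, limma adjusted p = 0.979) with a 95% interval from -20.7% to 33.1%. The direction turned with TMM factors (-0.06) and without Pax7-CreERT replicate 2 (-0.13).

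Pmp22 (chromosome 11, 63128982 to 63159547) encodes a tetraspan protein of compact myelin whose gene dosage is altered in common inherited neuropathies. It measured 229.6, 274.3 and 198.9 CPM in Pax7-CreERT replicates 1, 2 and 3, against 230.0, 228.1 and 170.7 CPM in the controls. The lowest library of either group was its replicate 3, a number that only names a mouse. The log2 fold change was 0.16 (SE 0.17, limma adjusted p = 0.918) and 0.02 without control replicate 3.

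Prx (chromosome 7, 27499324 to 27520041) encodes periaxin, a scaffold that joins the outer myelin membrane to the dystroglycan complex through DRP2. It measured 227.8, 284.2 and 196.2 CPM in Pax7-CreERT replicates 1, 2 and 3, against 233.2, 217.7 and 205.7 CPM in the controls, so that the control values lay inside the range of the Pax7-CreERT values. The log2 fold change was 0.09 (SE 0.15, limma adjusted p = 0.947), and -0.0040 with TMM factors. Over 300 bases of its merged exons overlap an antisense gene, Gm15541, and the use of strand in counting is not given in the sources used here. Drp2, the partner of periaxin, measured 157.6 ± 20.3 and 157.4 ± 4.94 CPM (SD, n = 3 each).

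Mal (chromosome 2, 127633226 to 127656695), a small membrane protein that sorts proteins to myelin lipid rafts, measured 105.0, 139.4 and 112.8 CPM in Pax7-CreERT replicates 1, 2 and 3. In the controls it measured 105.1, 104.5 and 106.6 CPM. The controls lay close together, while Pax7-CreERT replicate 2 stood above all other libraries. The log2 fold change was 0.16 (SE 0.14, limma adjusted p = 0.899), with a 95% interval from -9.35% to 38.4%. It was 0.045 without Pax7-CreERT replicate 2 and 0.066 with TMM factors.

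Cnp (chromosome 11, 100574939 to 100581739) encodes a phosphodiesterase of the non-compacted channels of myelin. It measured 83.2, 101.8 and 81.8 CPM in Pax7-CreERT replicates 1, 2 and 3, against 91.8, 84.3 and 81.4 CPM in the controls. It varied least of the 8, with a coefficient of variation of 9.15% over the 6 libraries. Its log2 fold change was 0.04 (SE 0.13, limma adjusted p = 0.970), its interval ran from -16.2% to 26.9%, and its sign turned with TMM factors (-0.05).

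Kcna1 (chromosome 6, 126636463 to 126645801), which encodes a voltage-gated potassium channel best known from axons beside the nodes of Ranvier, had the largest difference of the 8. It measured 193.4, 204.6 and 134.7 CPM in Pax7-CreERT replicates 1, 2 and 3, against 137.9, 133.4 and 91.8 CPM in control replicates 1, 2 and 3. Pax7-CreERT replicates 1 and 2 lay above every control, replicate 3 lay between control replicates 1 and 2, and control replicate 3 was the lowest. It averaged 177.6 ± 37.5 and 121.0 ± 25.4 CPM (SD, n = 3 each). The log2 fold change was 0.55 (SE 0.20, unadjusted p = 0.0222 and adjusted p = 0.891 with limma), with a 95% interval of the difference from 6.92% to 100.3%. The exact permutation p, 2-sided, was 0.2, and 0.1 is the smallest that groups of 3 allow. Without control replicate 3 the log2 fold change was 0.36 (limma unadjusted p = 0.0561), and without Pax7-CreERT replicate 1 as well it was 0.29.

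**Figure D2:**
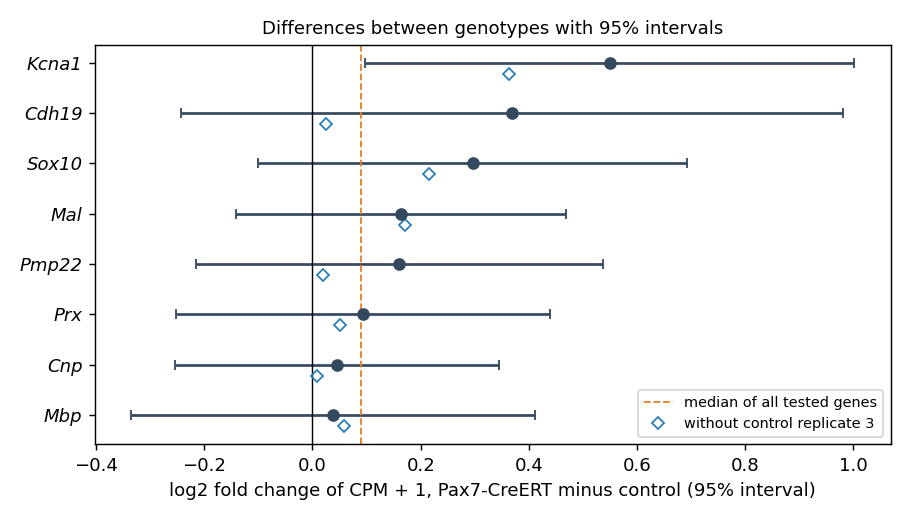
Log2 fold change of CPM + 1 in Pax7-CreERT minus control mice for each gene (filled points, all 6 libraries) with its 95% interval, and the same value without control replicate 3 (open diamonds); the dashed line is the median of all tested genes, 0.09. The intervals include 0 for all members but Kcna1, and without control replicate 3 Cdh19 is at 0.02 and Kcna1 at 0.36.

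Kcna2, a channel subunit that assembles with the product of Kcna1, measured 109.0, 108.4 and 83.2 CPM in Pax7-CreERT replicates 1, 2 and 3, against 87.1, 84.9 and 60.9 CPM in the controls. As for Kcna1, Pax7-CreERT replicate 3 lay among the controls and control replicate 3 was the lowest. Its log2 fold change was 0.37 (SE 0.17, limma adjusted p = 0.896). The other axon and neuron genes ranged widely. The neurofilament gene Nefl was at or below 0.67 CPM and, like Nefh and Rbfox3, was listed at 0 in 1 or more libraries, whereas Stmn2, a regulator of microtubules in neurons, averaged 30.8 ± 9.36 and 32.8 ± 5.89 CPM and Thy1, a surface protein that other cells also carry, 20.3 ± 2.42 and 15.0 ± 3.29 CPM (SD, n = 3 each). Of the 9 axon and neuron genes tested, 5 had higher and 4 had lower means (median log2 fold change 0.02).

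The members did not vary as one block across the libraries. Of the 8 members, 6 (Mbp, Pmp22, Prx, Mal, Cnp and Kcna1) had their highest value in Pax7-CreERT replicate 2, where 22.8% of all tested genes had theirs. Sox10 was highest in Pax7-CreERT replicate 3 and Cdh19 in control replicate 1. In control replicate 3, 5 of the 8 had their lowest value, beside the 39.8% of all genes. The shortfall there was uneven, since Cdh19 stood at 46.3% and Kcna1 at 57.1% of the mean of the other 5 libraries, Pmp22 at 73.5% and Sox10 at 75.5%, and Mal at 94.0% and Mbp at 100.7%. Across the 6 libraries Pearson's r between members ran from -0.31 for Mbp and Cdh19 to 0.94 for Prx and Cnp, as a description of 28 pairs that share library, depth and the composition of the suspension. Sox10 had r of 0.05 with Mbp and 0.07 with Prx, against 0.51 with Cdh19.

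The genes most like the mean of the members, among 9419 others with a mean of at least 10 CPM, were on neither the myelin protein list nor the lineage list. They were Cdc42, a small GTPase of the cytoskeleton, with r = 0.990 over 6 libraries, then Cnst (0.989), Ndel1 (0.987), Hmgcs1 of cholesterol synthesis (0.986), Lypla1 (0.985) and Pigk (0.985). Hmgcs1 is on the list of genes for myelin lipids and cholesterol described below. Cdc42 measured 376.2, 437.0 and 370.6 CPM in Pax7-CreERT replicates 1, 2 and 3, against 386.0, 369.7 and 334.3 CPM in the controls, with replicate 2 of the first group highest and control replicate 3 lowest. Over the 27 genes of the myelin protein and lineage lists in that order, r ran from -0.36 for Scn7a to 0.965 for Cadm1, a cell adhesion protein at place 30, with a median of 0.502. Erbb3 had r = 0.381 and Egr2 r = 0.323.

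**Figure D3:**
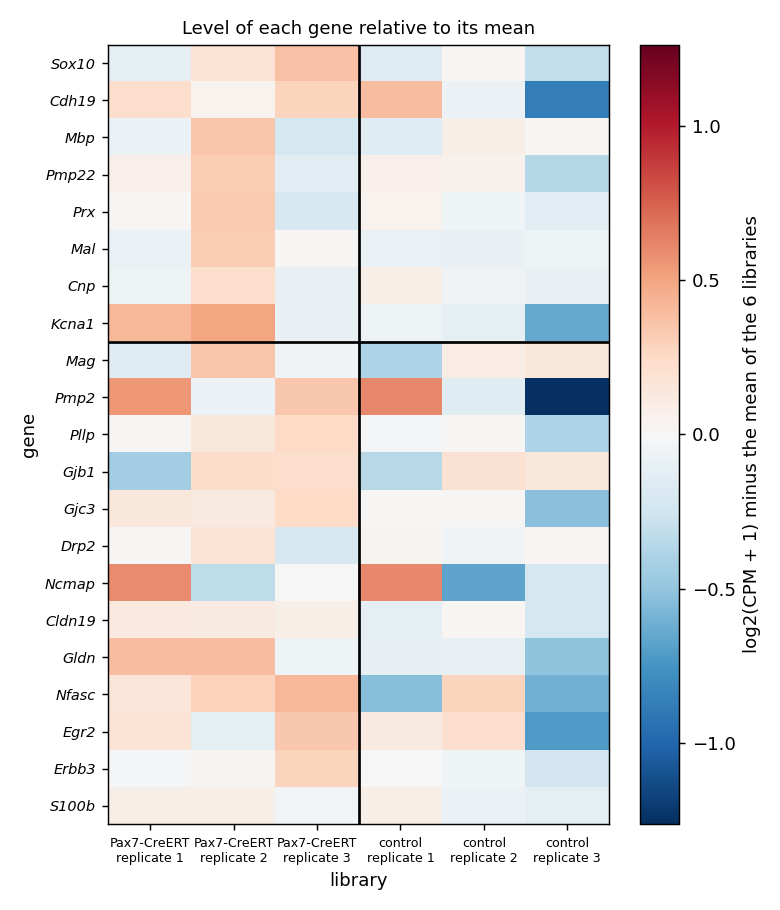
Log2(CPM + 1) minus its mean over the 6 libraries for the 8 members (above the line) and 13 other myelin and Schwann genes, one column per library with Pax7-CreERT on the left; red is above and blue below the mean. The column of control replicate 3 is blue for Cdh19, Kcna1, Pmp2 and Egr2 and near 0 for Mbp and Drp2.

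Other peripheral myelin genes lay higher on average in Pax7-CreERT mice without passing the test. Of 20 genes 18 had higher and 2 lower means, the median log2 fold change was 0.19 beside 0.09 over all genes, of which 68.0% were above 0, and with TMM factors the medians were 0.097 and -0.0015. With limma 0 passed at an adjusted p under 0.05. At an unadjusted p under 0.05 there were 2, both higher, beside 5.52% of all genes in either direction and 4.58% that were higher. The groups did not overlap in 3 of the 20, beside 11.0% of all genes, namely Gjc3, Cldn19 and Gldn, of which Gjc3 and Cldn19 were named after their values were seen. Gldn, gliomedin, which Schwann cell microvilli secrete at nodes, measured 15.7 ± 2.88 and 11.0 ± 1.85 CPM, and Nfasc, neurofascin, a cell adhesion protein of nodes and paranodes, 22.5 ± 2.12 and 15.3 ± 5.97 CPM (SD, n = 3 each). Ndrg1, a gene mutated in an inherited neuropathy and widely transcribed, measured 324.7 ± 22.9 and 326.7 ± 18.0 CPM, and Cd9, a tetraspanin also found on many other cells, 285.0 ± 7.85 and 264.0 ± 39.9 CPM. Pmp2, a fatty acid binding protein of myelin, had the same highest and lowest library as Cdh19, with 13.8, 8.61 and 11.8 CPM in Pax7-CreERT replicates 1, 2 and 3, against 14.4, 8.08 and 3.21 CPM in the controls.

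Lineage genes outside compact myelin followed the same direction. Of 16 tested, 15 had higher and 1 lower means, beside 68.0% of all genes above 0. The median log2 fold change was 0.24, beside 0.09 over all genes. The groups did not overlap in 4, Gap43, Ptprz1, Lgi4 and Cryab, again beside 11.0% of all genes. With limma 0 were past the adjusted threshold. At an unadjusted p under 0.05 there were 3, Gap43, Ptprz1 and Lgi4, all higher, beside 5.52% of all genes in either direction and 4.58% that were higher. Ptprz1, a receptor phosphatase of glia, measured 11.8, 11.8 and 8.55 CPM in Pax7-CreERT replicates 1, 2 and 3, against 6.35, 8.35 and 3.70 CPM in the controls (log2 fold change 0.76, SE 0.27, limma adjusted p = 0.891). Lgi4, a protein Schwann cells secrete to drive myelination, measured 34.9, 32.8 and 33.0 CPM in Pax7-CreERT replicates 1, 2 and 3, against 30.8, 23.0 and 22.2 CPM in the controls, a log2 fold change of 0.41 (SE 0.16, limma adjusted p = 0.891). S100b and Erbb3, classical markers of the lineage, measured 22.1 ± 0.949 and 20.9 ± 1.49 CPM, and 24.7 ± 2.94 and 21.4 ± 1.92 CPM (SD, n = 3 each). Scn7a, a sodium channel of non-myelinating Schwann cells, measured 107.9 ± 32.7 and 103.0 ± 13.1 CPM.

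Among the signals that Schwann cells receive, the lipids they build and the sheaths around them, limma gave 0 calls at an adjusted p under 0.05, and 2, 0 and 1 at an unadjusted p under 0.05, beside 5.52% of all genes. Of all genes tested 68.0% were above 0, with a median of 0.09, to be set beside each count of higher genes here. Of 17 signalling genes tested 15 were higher and 2 lower (median log2 fold change 0.23). Lgi4 and Erbb3 are also on the lineage list. Lgi4 is therefore counted in both lists, among the unadjusted calls and the genes without overlap. Ntrk3, a neurotrophin receptor, measured 4.94, 5.99 and 5.90 CPM in Pax7-CreERT replicates 1, 2 and 3, against 3.18, 2.69 and 3.45 CPM in the controls (log2 fold change 0.69, SE 0.22, limma adjusted p = 0.891). Nrg1, which encodes neuregulin, was at or below 1.48 CPM. Of 21 genes for myelin lipids and cholesterol 17 were higher and 4 lower (median 0.17), with Srebf2, the master regulator of cholesterol synthesis, at 41.0 ± 0.897 and 33.1 ± 4.02 CPM and the desaturase gene Scd2 at 280.9 ± 31.2 and 245.9 ± 20.7 CPM (SD, n = 3 each). Of 12 genes of the perineurium and endoneurium, the sheaths around nerve fibres, 9 were higher and 3 lower (median 0.15). The groups did not overlap in 6 of the signalling, 4 of the lipid and 1 of the sheath genes, beside 11.0% of all genes, the last being the glucose transporter Slc2a1 at 29.5 ± 3.25 and 37.3 ± 4.55 CPM.

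Relative to Sox10 in the same library the ranges of the genotypes overlapped for every other member. Each CPM was divided by that of Sox10, and 7 ratios were compared. The share of the Schwann lineage in the suspension enters both values only as far as the member's RNA came from Schwann cells, which was not tested. Of the ratios 5 were lower and 2 higher in Pax7-CreERT mice. The 5 lower ones, of Mbp, Prx, Pmp22, Mal and Cnp, belong to the members whose log2 fold change was below that of Sox10. That count therefore only restates the fold changes. The groups overlapped in all 7, and the lowest exact 2-sided permutation p was 0.3, for Cnp (adjusted over the 7 ratios, p = 0.84). The smallest p that groups of 3 allow is 0.1, so this test could not have called a difference at 0.05. Mbp stood at 17.3, 18.8 and 11.1 times Sox10 in Pax7-CreERT replicates 1, 2 and 3, against 17.1, 17.4 and 21.4 times in the controls. Kcna1 stood at 10.1, 8.65 and 4.98 times Sox10 in Pax7-CreERT replicates 1, 2 and 3, against 7.50, 6.31 and 5.55 times in the controls, a log2 difference of 0.24 (exact permutation p = 0.5). Pax7-CreERT replicate 3, which had the most Sox10, gave the lowest ratio for Mbp, Prx, Pmp22, Mal, Cnp and Kcna1. Sox10 is the divisor, so a library with much Sox10 gives low ratios by arithmetic. Mbp and Prx also had their lowest CPM in that library.

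**Figure D4:**
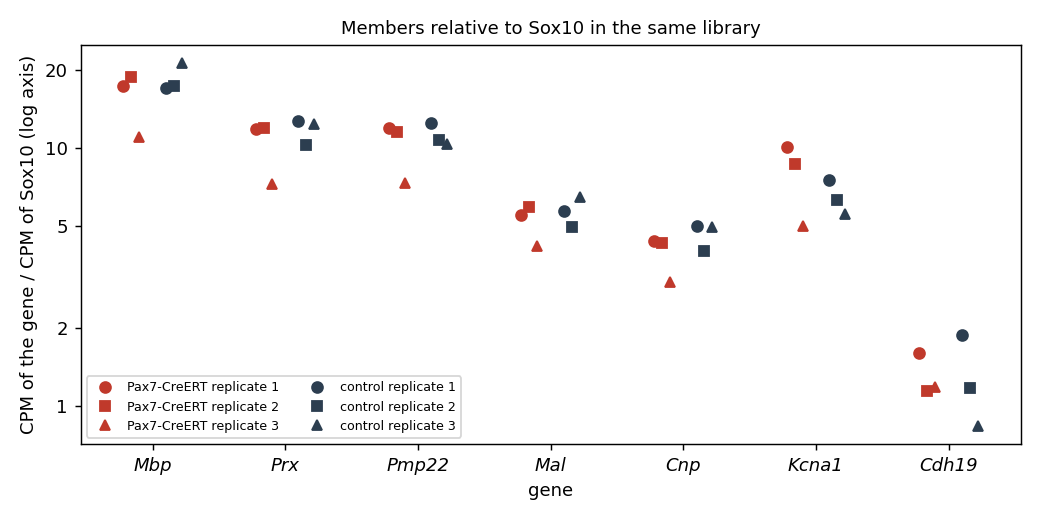
CPM of each other member divided by the CPM of Sox10 in the same library, on a log axis, for the 3 Pax7-CreERT (red) and 3 control (dark) libraries, with one point per mouse. Pax7-CreERT replicate 3 is lowest for Mbp (11.1), Prx, Pmp22, Mal, Cnp and Kcna1 (4.98), and the groups overlap for every gene. Sox10, the divisor, was highest in that library, which lowers its ratios.

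Marker genes of other cells differed in level between the libraries, and with limma 0 genes of any marker list passed at an adjusted p under 0.05. At an unadjusted p under 0.05, beside 5.52% of all genes, 10 myofibre, 4 pericyte and smooth muscle and 4 progenitor genes were higher and 1 erythroid gene was lower in Pax7-CreERT mice. Summed over 12 myofibre genes, CPM ran from 2049 to 2901 in Pax7-CreERT mice and from 1010 to 1666 in controls, and over 11 pericyte and smooth muscle genes from 9806 to 12354 and from 7697 to 9755. The 7 erythroid genes summed to 16133 to 45591 CPM in Pax7-CreERT mice and 24305 to 119827 CPM in controls, highest in control replicate 3, and the groups overlapped. So did the sums of the remaining lists, at 7066 to 7829 and 6314 to 9076 CPM for 10 endothelial genes, 2964 to 5593 and 3020 to 4333 for 10 genes of fibro-adipogenic progenitors, the source of muscle connective tissue, 419.4 to 462.0 and 402.7 to 459.0 for 9 satellite cell genes, and 705.2 to 1022 and 559.3 to 1368 for 11 macrophage and monocyte genes. The most abundant progenitor gene was Dcn, at 1693 ± 689.5 and 1760 ± 683.9 CPM. The median log2 fold change of that list was 0.36, with 7 genes higher and 3 lower. Over the other fits this median ran from 0.03, without Pax7-CreERT replicate 1, to 0.63, without control replicate 3. Col1a1, Col3a1, Fbn1 and Lum had log2 fold changes of 1.497, 1.22, 0.96 and 0.76 (limma adjusted p = 0.891 for each), and each was highest in Pax7-CreERT replicate 1. The lower genes, Dcn, Cd34 and Ly6a, were at -0.06, -0.03 and -0.14. Col1a1 measured 224.3, 110.5 and 56.6 CPM in Pax7-CreERT replicates 1, 2 and 3, against 32.6, 52.5 and 34.8 CPM in the controls. The 7 T, NK and B cell genes summed to 10.2 to 52.3 CPM in Pax7-CreERT mice and 9.83 to 89.3 CPM in controls, with Cd3e and Klrb1c at 0 in 1 or more libraries. The part of these cells and of haemoglobin in the values of the Schwann cell and myelin genes was not tested.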

How the data were processed

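Total RNA of mononuclear cells from muscle was extracted with Trizol and made into SureSelect strand-specific libraries, per the labels' protocols. The deposited values are CPM made by the authors: each library sums to 1000000 plus a constant of 0.0001 per gene, which was subtracted. The submitters' processing notes name mm10, Partek and DESeq2 without a role; aligner, counter and annotation are not given in the sources used here. Ends in the table lie 1 past the RefSeq end in most genes, so 1 was subtracted. Depth was estimated from the smallest step between low values; 93.0% to 94.0% of values up to 20 reads were whole within 0.05 read, below the 95% required, so no count test was run. Groups follow the labelled genotype; p-values measure the spread between 3 mice per group.

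Pax7-CreERT and control were compared with limma 3.58.1 (R 4.3.3, moderated statistics with a mean-variance trend) on log2(CPM + 1), over the 14763 genes that reached 1 CPM in 3 or more of the 6 libraries, with Benjamini-Hochberg adjustment over all of them; all 8 members passed this filter. The constant of 1 shrinks fold changes of scarce genes. Ratios to Sox10 were compared with exact 2-sided permutation tests (scipy 1.17.1). The test code was tested on simulated data. The members and gene lists were chosen with earlier results of these data known. From each further list the 2 most abundant genes and the 2 with the largest moderated statistic could be named, plus the 6 genes most like the members; genes outside this rule, among them Pmp2, Drp2, Erbb3, S100b, Egr2, Col3a1, Lum, Gap43 and Cryab, were named with their values known. Some genes of the myelin list are not reported here and were left out of its counts. Pseudocounts of 0.5 and 0.1, no filter, TMM factors (computed without weights), no trend and leaving out libraries were tried.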

Additional observations from a re-analysis of the deposited data

How the results depend on the processing

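No member passed at an adjusted p under 0.05 with limma in any of the 12 other fits (lowest adjusted p = 0.689, for Kcna1 and Cdh19 without control replicate 1), and the median log2 fold change of the members stayed between 0.04 and 0.21. Of 96 member fold changes 89 kept their direction and 7 turned. With TMM factors Mbp was at -0.059, Prx at -0.0040 and Cnp at -0.052. With 1 library left out, Mbp ran between -0.126 and 0.157, Prx between -0.048 and 0.218 and Cnp between -0.055 and 0.101, each lowest without Pax7-CreERT replicate 2 and highest without Pax7-CreERT replicate 3; Mbp was also below 0 without control replicate 1, at -0.027. The cause was not tested. Without control replicate 3 the log2 fold change of Kcna1 was 0.36, of Cdh19 0.02, of Pmp22 0.02 and of Cnp 0.0080. Of all genes, 1 passed in the fit used, 2 with no filter on low values, 2 without Pax7-CreERT replicate 1 and control replicate 3, and 0 to 1 when 1 library was left out. Ratios to Sox10 ran, over the libraries left out in turn, from -0.34 to 0.025 for Prx, -0.28 to 0.079 for Pmp22, -0.25 to 0.0045 for Mal and -0.20 to 0.39 for Cdh19 on the log2 scale; the other ratios kept their direction in every alternative. With TMM factors the median over all genes was -0.0015, and the medians were 0.097 for other peripheral myelin genes, 0.16 for lineage genes, 0.13 for signalling genes, 0.075 for lipid genes and -0.061 for axon and neuron genes. With 3 mice against 2 the exact test cannot go below 0.2. No paired analysis was possible because the labels give no number or litter that ties a mouse of one group to a mouse of the other. Depth limits Sox10 and Cdh19 most, at counting SDs of up to 12.2% and 13.4%.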
